A study of Mus musculus with 4 samples.

Results

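Runx3 occupancy was examined at 7 mouse genes of the MHC class II pathway that do not encode the classical class II chains: Ciita, Cd74, H2-DMa, H2-DMb1, H2-DMb2, H2-Oa and H2-Ob. The members were the Runx3 ChIP-seq peaks whose centre lay in the body of one of these genes or within 20 kb of it, with gene bodies from GENCODE M1 on the mm9 assembly. The rule used position only and took no account of how high a peak scored. It found 29 distinct peaks among the 15121 peaks of the deposited list. The last peak inside the 20 kb limit lay 19698 bp from H2-DMb2 and had a score of 9.16, and the first peak outside it lay 27254 bp from H2-DMb1 and had a score of 3.69.

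The cells were freshly sorted splenic CD11chiMHCII+CD4+ conventional dendritic cells (DC) of WT mice, pooled from about 15 animals, and the labels name no transgene, knockout or treatment for any sample. Chromatin cross-linked with 1% formaldehyde gave 2 immunoprecipitates with an in-house anti-Runx3 antibody (Runx3 IP) and 2 samples of whole cell extract (input), and the labels name the strain C57BL/6 except for 1 input, where C57BL/7 is written. Reads were 50 bp long and came from fragments of about 300 bp. The 4 samples entered 1 peak call, so each peak carries 1 score for both Runx3 samples together and has no value per replicate. A spread between replicates, and therefore a test between peaks, could not be computed, and every value below describes this 1 call. A gene without a peak is a gene where none was called at the depth of this experiment, and the depth of each sample was not analysed here. Scores are those written by the MACS2 peak caller in a unit that is not stated, and they served only to order peaks within the list, where they ran from 1.33 to 309 with a median of 12.1. RNA was not measured in these samples, so the labelled cell type could not be checked against its marker genes, and the surface proteins of the sort are the only evidence for it.

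CIITA is the transactivator that switches on the class II genes. It does not bind DNA itself, and joins RFX, CREB and NF-Y on the X, X2 and Y boxes of class II promoters. Its own gene is read from separate promoters: pI is known for use in conventional DC and macrophages, pIII in B cells and plasmacytoid DC, and pIV after interferon gamma. CIITA also activates Cd74, H2-DM and H2-O. The invariant chain, encoded by Cd74, escorts new class II molecules to the endosome and plugs their groove. H2-DM, a dimer of the products of H2-DMa and of H2-DMb1 or H2-DMb2, takes the remnant of the invariant chain out and lets antigenic peptide in. H2-O, the dimer of H2-Oa and H2-Ob, holds H2-DM back.

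The sequences below carry the description that follows and were read from the plus strand of the NCBIM37 genome, the same assembly as mm9. The first is the part of the Ciita peak with the highest score of all 29 that holds a close group of recognisable letters, chr16:10487933-10488232. The second is the matching part of the peak upstream of H2-DMb2, chr17:34279931-34280230. In both, capitals mark TGTGGT, the hexamer that RUNX proteins bind, and an ETS-IRF composite element, written as GGAA, 2 bases of any kind and GAAA, the form bound by PU.1 together with IRF4 or IRF8. The third is the second H2-DMb2 peak up to the base before the start site, chr17:34281936-34282215, and the fourth is the H2-Oa peak up to the first bases of that gene, chr17:34229119-34229294, where capitals mark letters arranged as in the X and Y boxes. The fifth is the part before the start site of the H2-DMb1 stretch that aligns with the second H2-DMb2 peak, chr17:34289924-34290016, with a TGTGGT that the plus strand shows as ACCACA in capitals.
Ciita: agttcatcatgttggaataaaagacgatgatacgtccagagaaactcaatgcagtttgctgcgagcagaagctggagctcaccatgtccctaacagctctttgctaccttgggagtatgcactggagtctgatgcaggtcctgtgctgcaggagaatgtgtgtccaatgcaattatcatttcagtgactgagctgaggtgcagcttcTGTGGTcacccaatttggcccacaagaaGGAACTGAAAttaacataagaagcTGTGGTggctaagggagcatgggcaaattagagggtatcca
H2-DMb2 upstream: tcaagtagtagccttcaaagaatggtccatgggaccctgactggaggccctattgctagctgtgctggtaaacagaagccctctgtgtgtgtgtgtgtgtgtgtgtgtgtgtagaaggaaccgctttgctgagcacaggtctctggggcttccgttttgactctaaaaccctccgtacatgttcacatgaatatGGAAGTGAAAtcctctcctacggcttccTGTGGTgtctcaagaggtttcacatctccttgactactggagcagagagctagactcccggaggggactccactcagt
H2-DMb2 promoter: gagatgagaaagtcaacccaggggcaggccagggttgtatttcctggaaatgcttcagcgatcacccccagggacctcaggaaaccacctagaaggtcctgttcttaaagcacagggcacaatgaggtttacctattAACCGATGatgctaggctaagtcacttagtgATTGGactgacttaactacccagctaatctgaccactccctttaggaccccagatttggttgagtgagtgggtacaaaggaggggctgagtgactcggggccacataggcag
H2-Oa promoter: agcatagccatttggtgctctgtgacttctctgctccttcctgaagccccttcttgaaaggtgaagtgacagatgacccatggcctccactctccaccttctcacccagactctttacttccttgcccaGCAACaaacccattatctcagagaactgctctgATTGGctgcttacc
H2-DMb1 counterpart: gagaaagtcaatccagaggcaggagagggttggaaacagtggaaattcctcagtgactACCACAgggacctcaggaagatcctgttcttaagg

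Peaks were found at all 7 genes, and Ciita had the most and the highest. Of the 22284 protein-coding genes, 50.4% had a peak in their body or within 20 kb, 25.0% had one within 1 kb of a transcription start site (TSS), and 23.2% had one inside the gene body. Of the 7 genes, 7 had a peak in the window. For 5 of them a peak lay within 1 kb of a TSS, and H2-DMb1 and H2-Ob were the others. For 6 of them a peak lay inside the gene, and H2-DMb1 was the exception. The peak inside H2-DMb2 lay in its annotated body but outside its longest coding transcript. The windows held 9 peaks at Ciita, 6 at H2-DMa, 6 at H2-DMb1, 5 at Cd74, 5 at H2-DMb2, 4 at H2-Ob and 2 at H2-Oa, where the median protein-coding gene had 1. A gene of 9 peaks was rare, since 99.7% of protein-coding genes had fewer. The corresponding shares were 98.3% for H2-DMa and H2-DMb1, 96.7% for Cd74 and H2-DMb2, 93.2% for H2-Ob and 72.5% for H2-Oa. The genes differ in length, and per 10 kb of window the number of peaks was 1.37 at H2-DMa, 1.27 at H2-DMb1, 1.04 at H2-DMb2, 1.03 at Ciita, 1.02 at Cd74, 0.727 at H2-Ob and 0.466 at H2-Oa. This density was not computed over all genes, and the shares above take no account of length. Many window peaks lay nearer to another gene. The nearest coding TSS was the gene's own for 6 peaks at Ciita, 4 at Cd74, 2 at H2-DMb2 and 2 at H2-Oa. It was so for 1 peak each at H2-DMa, H2-DMb1 and H2-Ob. The counts are not independent, because the H2-DM windows overlap: 3 peaks lay in all 3 H2-DM windows and 2 in both H2-DMb windows, so that 37 assignments stood for 29 peaks.

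**Figure D1:**
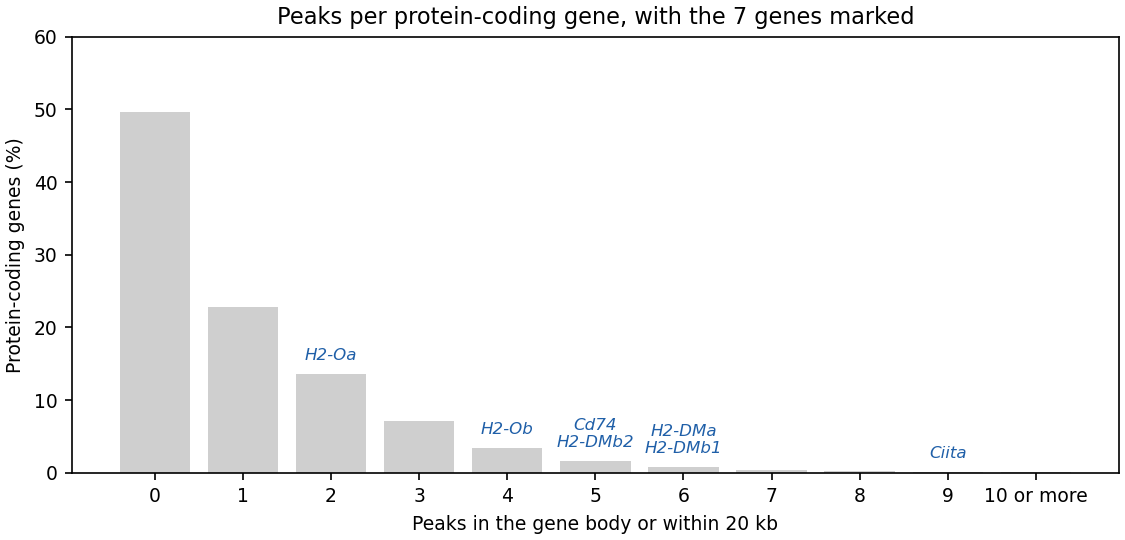
Share of protein-coding genes (bars, in percent) by the number of Runx3 peaks in the gene body or within 20 kb, with the 7 genes written above the bar of their own count. H2-Oa stands at 2 peaks, H2-Ob at 4, Cd74 and H2-DMb2 at 5, H2-DMa and H2-DMb1 at 6 and Ciita at 9.

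Ciita, on the plus strand of chr16:10480237-10527657, held 5 peaks in its 47421 bp, with 2 more upstream and 2 downstream. The highest score of the 29 peaks, 91.32, belonged to chr16:10487758-10488408, a peak of 651 bp that ranked 212 in the whole list, above 98.6% of all peaks. It lay in intron 1 of the longest transcript, and its centre was 188 bp upstream of an inner start site. Of the 5560 protein-coding genes with a peak at a TSS, 53, Ciita included, had a score this high there. A weaker neighbour with a score of 7.20, shared by 436 peaks of the list, lay 280 bp further upstream at chr16:10487107-10487477.

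The annotation gives Ciita 6 transcripts that begin at 5 positions in 3 groups. It does not name them, and taken in their order along the gene they would be pI, pIII and pIV. The first group is the single start at position 10480237 of the longest transcript, whose coding sequence of 3465 bases is the longer one of the gene. This transcript is annotated to begin at its first coding base, with no untranslated part before it, and distances were counted from that base. No peak was called within 1 kb of this start, the nearest peak was 7055 bp away, and no TGTGGT lay within 500 bp of it. The second group, from 10488271 to 10488392, starts 4 transcripts, among them one with a coding sequence of 3234 bases. Both peaks with scores of 91.32 and 7.20 lay within 1 kb of this group, and 3 copies of TGTGGT lay within 500 bp. The third group, at 10489876, is 1484 bp further on and starts 1 transcript, with an annotated coding sequence of 399 bases. No peak lay within 1 kb of it, the nearest was 1793 bp away, and 1 TGTGGT lay within 500 bp. Around all of these start sites 100% of the 50-base words within 500 bp occurred once in the genome as exact matches. This held for the groups without a peak as well as for the group with one. Near copies that differ by a few bases were not counted, and whether they bear on the missing calls was not tested.

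The high Ciita peak held TGTGGT 3 times, at -219, 60 and 112 bp from its centre. The copies at 60 and 112 bp enclose the ETS-IRF composite element at 10488168-10488177, as the first sequence above shows. In the list as a whole 7.81% of peaks had such a composite and 4.48% had it together with TGTGGT. The peaks around this one varied widely in score. Upstream of the gene lay chr16:10461231-10461696, with a score of 28.55, whose nearest start site was that of Fam18a, and chr16:10470643-10471027, with a score of 14.96, 9402 bp before the first Ciita start site. In the first intron lay chr16:10496234-10496486, with a score of 7.53, and chr16:10500613-10500978, with a score of 11.96. In intron 12 lay chr16:10515781-10516395, with a score of 20.88, above 71.6% of all peaks. The downstream pair covered the first exons of Dexi and Clec16a, with scores of 9.84 and 4.21 and a GC content of 67.4% and 67.6%, and had no TGTGGT.

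**Figure D2:**
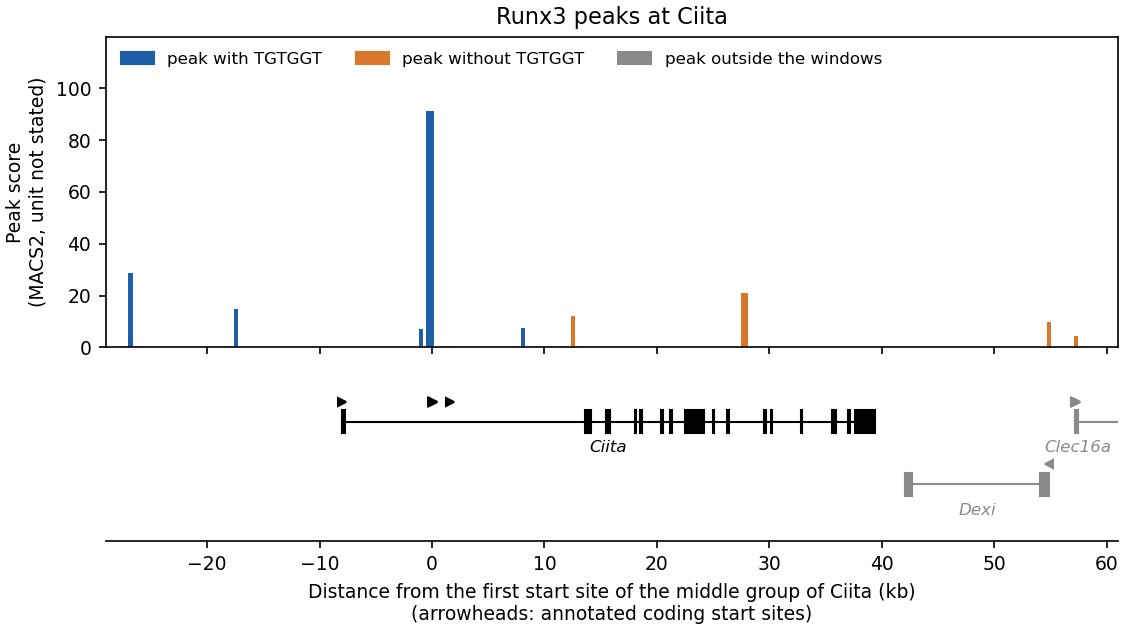
Runx3 peaks at Ciita: bars give the peak score (MACS2, unit not stated) against the distance in kb from the first start site of the middle group, coloured by whether the peak holds TGTGGT, above the exons and start sites of Ciita, Dexi and Clec16a. The bar of 91.32 stands at the middle start sites, and no bar stands at the first start site or at the third.

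In 3 of the weaker Ciita peaks TGTGGT lay close to the centre, 13, 13 and 16 bp from it, and these sites are shown with 20 bases on each side and the hexamer in capitals, together with those of the peaks downstream of H2-Oa and of H2-DMb1, where it lay 145 and 205 bp from the centre. They stand, in order, at chr16:10470825-10470870, chr16:10487282-10487327, chr16:10496321-10496366, chr17:34238730-34238775 and chr17:34302349-34302394. The hexamer reads TGTGGT upstream of Ciita and downstream of H2-Oa, and ACCACA, its reverse complement, in the others.
Ciita 5' flank: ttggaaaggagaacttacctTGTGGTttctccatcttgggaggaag
Ciita intron 1, before the high peak: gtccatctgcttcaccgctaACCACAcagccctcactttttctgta
Ciita intron 1, after the high peak: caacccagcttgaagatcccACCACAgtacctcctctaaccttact
H2-Oa downstream: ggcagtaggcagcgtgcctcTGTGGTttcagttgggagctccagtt
H2-DMb1 downstream: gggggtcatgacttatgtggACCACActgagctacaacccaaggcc

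H2-DM is encoded in a tight row on chromosome 17, H2-DMa at 34272127-34276046, H2-DMb2 at 34280252-34288498 and H2-DMb1 at 34290017-34297168, all on the plus strand. The 2 beta chain genes are near copies: 751 of 783 aligned coding bases were identical, or 95.9%. Near their start sites the Runx3 peaks were nonetheless placed differently. At H2-DMb2, the peak chr17:34279854-34280307 had a score of 21.71, above 73.1% of all peaks, and lay 171 bp upstream of the annotated start of a noncoding transcript of the gene. A second peak, chr17:34281936-34282217, had a score of 5.36, above 12.4% of all peaks. It lay 139 bp upstream of the next start site, which is not the coding start site at 34282258. At H2-DMb1 no peak was called within 1 kb of a TSS or inside the gene, and the gene lay in a stretch of 19717 bp between called peaks. H2-DMb2 from its coding start site at 34282258 onward lay in the same stretch. The peak inside H2-DMb2 is counted there because the annotated body begins at the noncoding start. In H2-DMa, a peak in exon 1 with a score of 8.49 was centred 422 bp after the TSS, and 28.1% of genes with a TSS peak had a lower score there.

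Repeated sequence was measured beside this difference, because reads were kept only where they aligned uniquely. Of the 50-base words of the gene body, 79.0% occurred once in the genome for H2-DMb1 and 77.6% for H2-DMb2, against 95.1% for Ciita and 100% for H2-DMa. Within 500 bp of the coding start site the shares were 83.9% for H2-DMb1, at 34290017, and 91.9% for H2-DMb2, at 34282258. The part of H2-DMb1 that aligns with the weaker H2-DMb2 peak, chr17:34289924-34290200, was identical at 226 of 289 aligned positions, or 78.2%. As exact matches, 100% of its words occurred once, and near copies were not counted. The higher H2-DMb2 peak had no counterpart upstream of H2-DMb1 beyond a match of 30 aligned bases. Whether near copies, or the repeated words elsewhere in the H2-DMb genes, bear on the missing call was not tested.

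The letters in the H2-DMb peaks also differed. The peak with a score of 21.71 held TGTGGT 75 bp from its centre and the ETS-IRF composite at 34280125-34280134, the same pair as in the high Ciita peak. The peak with a score of 5.36 held no RUNX hexamer of the 4 searched and had a CCAAT box. In H2-DMb1 the promoter held TGTGGT on the minus strand at -35 bp from the TSS, where no peak was called, while 22.5% of the 22265 protein-coding genes searched held this hexamer from 250 bases before to 50 after at least 1 of their coding start sites. Downstream of H2-DMb1, 8377 bp after its nearest start site, the peak chr17:34301935-34302398 had a score of 22.33, above 73.4% of all peaks. It was followed by peaks with scores of 9.16 and 13.43 whose nearest start site was that of Psmb9, a subunit of the immunoproteasome. Upstream of H2-DMa, 3 peaks with scores of 4.23, 9.16 and 9.16 lay nearest to start sites of Brd2, a chromatin reader, with GC contents up to 72.5%.

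The peaks at H2-Oa and inside H2-Ob all scored below the list median. H2-Oa, at chr17:34229285-34232179, had a peak over its first exon, chr17:34229119-34229694, with a score of 6.57, and another 9531 bp after its start site, chr17:34238717-34239078, with a score of 7.53. Of genes with a TSS peak, 17.2% had a lower score there than H2-Oa. H2-Ob, at chr17:34375848-34390850, had no peak within 1 kb of a TSS. Its single peak inside the gene, chr17:34385768-34386027 in intron 5, had a score of 3.76, the lowest of the 29. The 3 other peaks in its window, with scores of 29.48, 11.96 and 4.23, lay downstream and nearest to the start site of H2-Ab1, which encodes a classical class II beta chain.

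**Figure D3:**
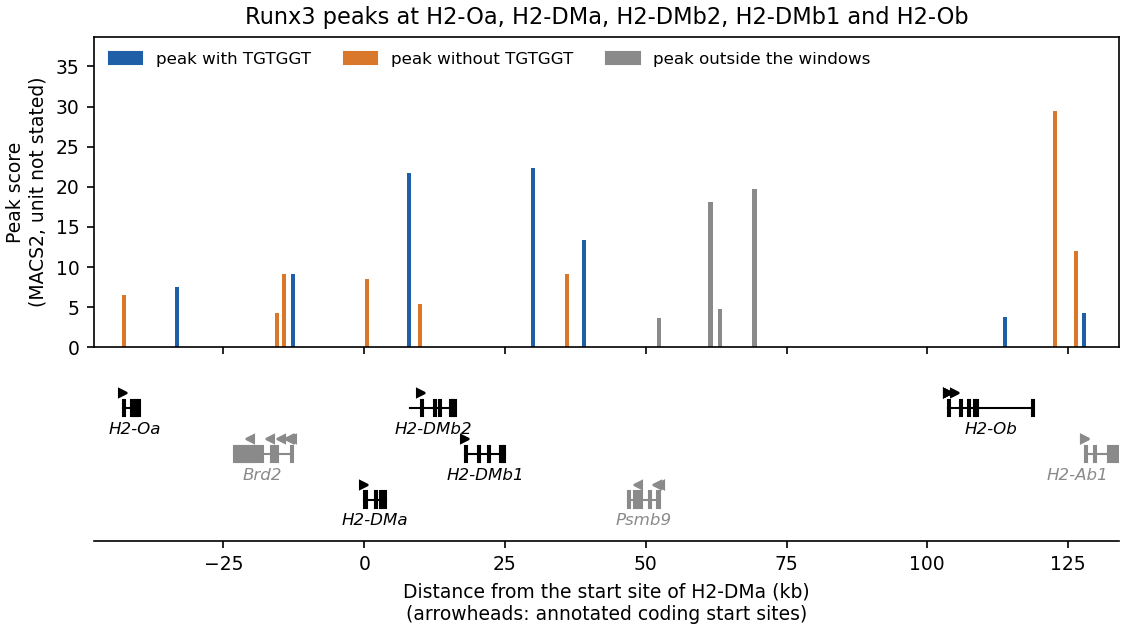
Runx3 peaks along the H2-O and H2-DM genes: bars give the peak score (MACS2, unit not stated) against the distance in kb from the start site of H2-DMa, coloured by whether the peak holds TGTGGT and grey for peaks outside the windows, above the exons and start sites of the genes. The bars of 21.71 and 22.33 stand before H2-DMb2 and after H2-DMb1, with none over H2-DMb1 itself.

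Cd74, on the plus strand of chr18:60963502-60972300, combined a high peak over its start site with a higher one in its first intron. The peak over the start site, chr18:60963185-60963745, had a score of 44.17, above 90.8% of all peaks, and 91.1% of genes with a TSS peak had a lower score there. It held no RUNX hexamer of the 4 searched, and it did hold an ETS-IRF composite and, at -204 bp from the TSS, a CCAAT box. The intronic peak, chr18:60964456-60965049, had a score of 46.24, above 91.6% of all peaks. It was centred 1243 bp after the TSS and held 2 copies of TGTGGT, at 68 and 79 bp from its centre. These starts are 11 bases apart. Each of these peaks had 100% of its 50-base words unique in the genome.

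Further into the first intron of Cd74 lay chr18:60965103-60965595, with a score of 4.23 and 53 bp from the peak before it, and chr18:60966477-60967315, with a score of 8.74. The latter, the widest of the 29 at 839 bp, held TGTGGT 8 times between 60966689 and 60966758, and 90.8% of its words occurred once in the genome, the lowest share of the 29 peaks. Its commonest word occurred 10925 times. Of these hexamers 5 follow each other in steps of 5 bases. Without this peak the density of TGTGGT over the 29 peaks was 1.52 per kb in place of 2.05, where all peaks had 1.82. The last peak of the window, chr18:60948856-60949114 with a score of 5.30, lay upstream and nearest to Rps14, a ribosomal protein gene.

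**Figure D4:**
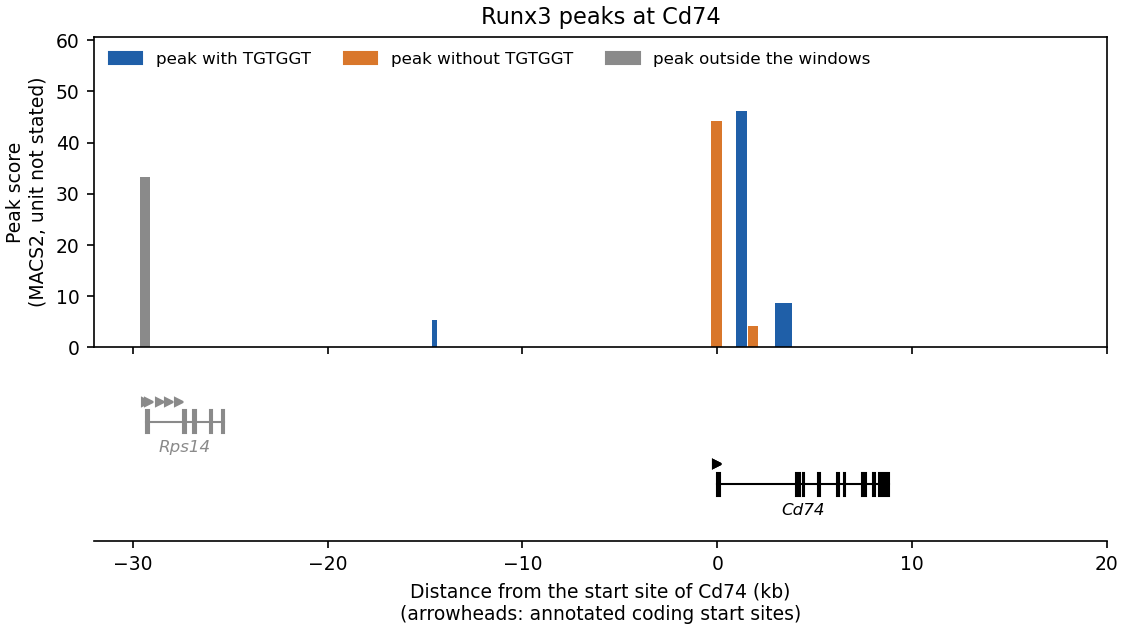
Runx3 peaks at Cd74: bars give the peak score (MACS2, unit not stated) against the distance in kb from the start site of Cd74, coloured by whether the peak holds TGTGGT and grey for a peak outside the window, above the exons and start sites of Cd74 and Rps14. Bars of 44.17 and 46.24 stand over the start site and in the first intron, and no bar stands further than the first intron.

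Over the 29 peaks, scores were spread from 3.76 to 91.32 with a median of 9.16, against 12.1 for the whole list. At or above the list median were 10 peaks, and 19 were below it. The upper quartile of the list, 23.2, was reached by 5 peaks, which lay at Ciita (2), Cd74 (2) and in the window of H2-Ob (1). Peaks of many genes crowd into these regions, and the nearest coding start site belonged to 1 of the 7 genes for 17 peaks and to another gene for 12. Widths ran from 253 to 839 bp with a median of 407 bp, against 406 bp in the list, and the median GC content was 50.3%, against 50.7%.

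**Figure D5:**
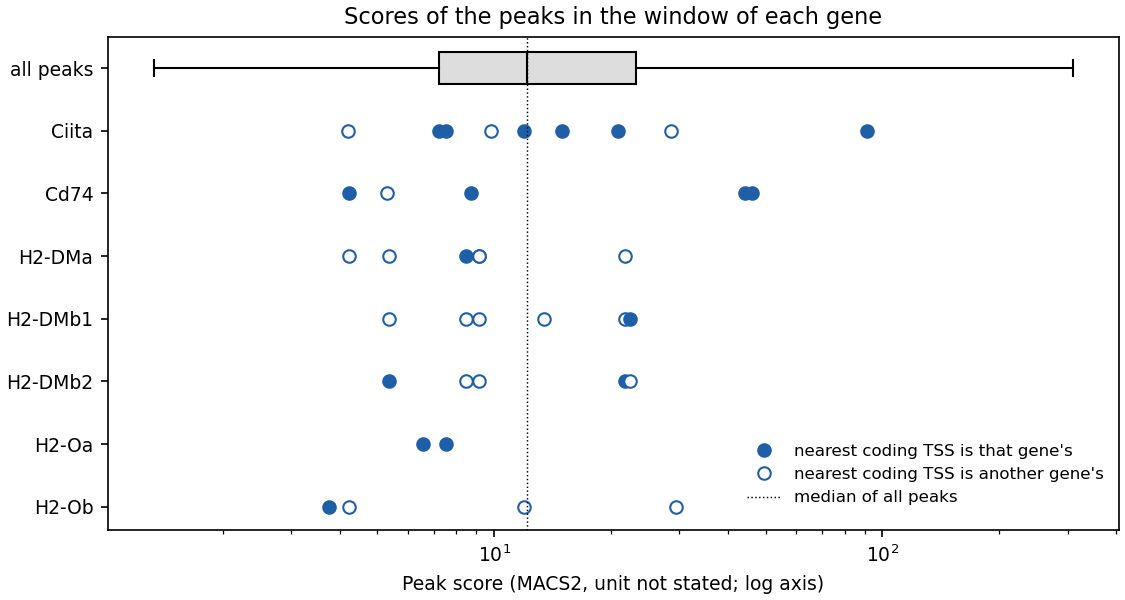
Scores (MACS2, unit not stated, log axis) of all peaks as a box with quartiles and whiskers to the lowest and highest value, and of the peaks in the window of each gene as points, filled where the nearest coding start site is that gene's. The filled points of Ciita and Cd74 reach 91.32 and 46.24, those of H2-Oa and H2-Ob stay below the dotted median of 12.1, and the H2-DMa row has 2 peaks at 9.16 drawn as 1 point.

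RUNX hexamers were searched on both strands of each whole peak. TGTGGT was found in 15 of the 29 peaks, or 51.7% (Wilson 95% interval 34.4 to 68.6%, counting error only), and in 54.0% of all peaks, so the share at these genes was near the share everywhere. The paper reports the RUNX motif in a larger share of its Runx3-bound regions. The paper writes that motif as TGTGGT, the same letters as counted here. Its motifs came from de novo discovery, whereas the exact hexamer was counted here. How the paper matched the motif to regions is not stated, so the shares may not be alike in measure. TGCGGT was found in 4 peaks, or 13.8%, against 20.1% of all peaks. CGTGGT was also found in 4, against 14.6%, and a single peak, 3.45%, held CGCGGT, against 12.4%. At least 1 of these 4 hexamers was found in 19 peaks and none in 10. The high peaks were on both sides, since those of Ciita and of the first intron of Cd74 held TGTGGT and that over the Cd74 start site held none of the 4. The ETS-IRF composite was found in 3 peaks, the high Ciita peak, the higher H2-DMb2 peak and the Cd74 promoter peak, which is 10.3% against 7.81% of all peaks. The CCAAT box, searched on both strands, was found in 16 peaks, or 55.2%, against 41.7%. TGACGT, the core of the X2 box that CREB binds, was found in 4, or 13.8%, against 11.0%. The paper reports the same letters as the site of the DC factor zDC (Zbtb46), enriched among Runx3-bound regions. These 4 peaks lay nearest to start sites of Fam18a, Brd2 and Cd74. None of them held the order of X and Y box letters described next.

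The order of letters of a class II promoter, GNAAC of the X box followed by ATTGG of the Y box with starts 28 to 38 bases apart, was searched on both strands and found in 3 of the 29 peaks, or 10.3%, and in 2.63% of all peaks. These were the H2-Oa promoter peak and 2 of the peaks nearest to H2-Ab1. Among promoters, it was found at H2-Oa, at -37 bp from the first TSS and inside the peak with a score of 6.57. It was also found at H2-Ob, at -85 bp from the first TSS and in no peak. The ATTGG itself starts at -4 bp at H2-Oa, where its last base is the annotated TSS, and at -55 bp at H2-Ob. The promoters of 2.73% of the genes searched held the order, a gene with several coding start sites counting once. With a second form of the X box, AACNGATG, and starts 26 to 36 bases apart, both chosen after the H2-DMb2 sequence had been seen, the order was found at -185 bp from the coding TSS of H2-DMb2, inside the peak with a score of 5.36, and in the promoters of 9 of the genes searched, or 0.0404%. A match says that these letters are there, and binding of RFX or NF-Y was not measured.

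Peaks were also counted at 26 other genes of the pathway, by the same window. Of the 5 classical class II chain genes 5 had a peak in the window, and 3 had one within 1 kb of a TSS. The 5 include H2-Ea-ps, which is annotated as a pseudogene, and their windows overlap, so these counts are not independent. Of the 7 genes for the RFX, NF-Y and CREB proteins 5 had one in the window and 3 near a TSS, and Rfxap and Nfyb had none. Of 7 genes for known regulators of Ciita 6 had one in the window and 3 near a TSS, and Irf8, a factor of DC development, had none. Of 7 genes for proteases and turnover factors of the pathway 7 had one in the window and 4 near a TSS. In all, 23 of 26, or 88.5%, had a peak in the window and 13, or 50.0%, near a TSS, beside 50.4% and 25.0% of all protein-coding genes. The highest scores at a TSS among them were 106.89 at Creb1, 104.5 at Rfx5, the DNA-binding subunit of RFX, and 99.32 at Spi1, which encodes PU.1. The windows of the classical chain genes held 17 peaks with a median score of 12.0, and 4 of these, 23.5%, were also among the 29 peaks (13.8%), all of them in the window of H2-Ob.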

How the data were processed

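The deposited file is 1 list of Runx3-bound regions of WT splenic CD4+ DC, made by the authors from 2 Runx3 immunoprecipitates and 2 inputs in 1 call. Per the labels and the paper's methods, reads of 50 bp were aligned uniquely to mm9 with Bowtie after base calling with CASAVA 1.8, and peaks were called with MACS2. Its threshold, the other versions and the treatment of duplicates are not given in the sources used here. The deposited score of each peak has no stated unit, and was used only within the list. The list holds no counts, so depth is not known from it and intervals cover the counting of peaks only.

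Positions are counted from 1 on mm9. The genome was NCBIM37 and genes were those of GENCODE M1, with overlapping records of 1 symbol merged (Ciita has 2). A peak belonged to a gene when its centre lay in the body or within 20 kb, and to a TSS within 1 kb, and introns were numbered in the longest coding transcript. Motifs were counted on both strands. A 50-base word was called unique when its exact letters occurred once in the genome on either strand, so near copies were not counted. The H2-DMb alignment used a match score of 2, a mismatch score of -3, and gap scores of -5 and -2. The counts of peaks per window and near a TSS, the TGTGGT search and the word counts were tested on simulated data. The other steps were not. Python 3.11.15, numpy 2.4.6, scipy 1.17.1, pysam 0.24.0, Biopython 1.88, numba 0.67.0 and matplotlib 3.10.9 were used.

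The 7 genes and the pathway list, which were chosen by hand, were set with earlier results of these data known. Named pathway genes were those without a peak and the 3 with the highest TSS score. No test was run, because the list has no value per replicate. The alternatives were other windows and TSS distances, the nearest TSS, score minima at the list median and upper quartile, joined peaks, other hexamers and the central 200 bp of each peak.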

Additional observations from a re-analysis of the deposited data

How the results depend on the processing

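No paired analysis was possible because the 4 samples, whose labels share replicate numbers, entered 1 peak call with no value per replicate, and for the same reason no replicate could be left out. Of 46 alternative values, 21 stayed close to the value reported and 25 moved. Counts, shares and medians have no direction, so a reversal was not judged. A count was called close within a fixed ratio of the reported one, and 20 peaks within 10 kb passed as close to 29. A share or median was called close inside the 95% interval of the reported value. That interval is narrow for shares over all genes or all peaks and wide for shares over the 29 peaks. The 29 peaks became 16 within 5 kb, 49 within 50 kb, 12 in the gene body, 17 by nearest TSS, 10 at or above the list median score and 5 at or above its upper quartile. With that upper quartile 3 of the 7 genes had a peak in the window and 2 near a TSS, and with the median 3 had one near a TSS. The share of all protein-coding genes with a peak, 50.4%, became 43.4% within 10 kb, 38.4% within 5 kb, 62.6% within 50 kb, 23.2% in the body, 34.1% by nearest TSS, 34.1% at or above the median score and 20.2% at or above the upper quartile. The share with a peak near a TSS, 25.0%, became 24.2% with coding transcripts only, 27.0% within 2 kb, 22.6% within 500 bp, 13.5% at or above the median and 6.68% at or above the upper quartile. TGTGGT in the central 200 bp was found in 31.0% of the 29 peaks and 41.8% of all peaks, and any of the 4 hexamers in 65.5% and 76.6%. The median score of the member peaks was 10.4 within 5 kb, 8.01 in the gene body and 8.74 by nearest TSS. Each value rests on 1 pooled call, so its spread between replicates is not known. A start site without a peak may lie below the depth of the call.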
